A study of Rattus norvegicus with 12 samples.

Results

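Axon guidance ligands and receptors were followed in the rat striatum, the forebrain region that receives dopamine input and is a main site of action of methamphetamine (MA). The set held every gene of the count table whose symbol begins as a class 3 to 7 semaphorin, a plexin of class A, B, C or D or a netrin, or is that of an EphA or EphB receptor, an ephrin-A or ephrin-B, a Slit, a Robo, a neuropilin, an Unc5 receptor or *Dcc*. Of the 17337 genes in the table, 59 had such a symbol, and 57 of these had a mean of at least 10 counts over the 12 rats. They comprised 33 ligands and 24 receptors. The other 2 genes, *Epha1* with a mean of 4.42 counts and *Robo3* with a mean of 3.17, were left out, and the members closest above the limit were *Efna4* with 18.3 and *Ntn5* with 22.2. The rule used the symbols and the mean over all rats, and no difference between groups, though the set was chosen with earlier results of these data known.

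Each library came from the striatum of 1 rat, after 16 days of MA by its label. All 12 are labelled as wild type. By the study's methods, the MA rats were male Sprague–Dawley rats, 8 weeks old when lever training began, that took the drug intravenously on a fixed-ratio schedule, and these details are not given separately for the non-addicted rats. Of the 12 rats, 4 were kept for 12 h without the drug after the last session (MA12, rats 21, 31, 4N and 7N) and 4 for 24 h (MA24, rats 9N, 14N, 15N and 16N). The other 4 are labelled non-addicted after the same 16 days of MA (rats 9, 11, 12 and 13). What set the non-addicted rats apart, and how long after their last session they were killed, is not given in the sources used here. That all 3 groups took the drug rests on the labels alone. The study describes saline, MA, 12 h and 24 h abstinence groups, and none that it calls non-addicted. Which of its groups these 4 rats belong to, if any, is not given. No rat here is labelled as saline, so no group is known to be a drug-free baseline. An N closes the number of every MA24 rat, of 2 of the 4 MA12 rats and of no non-addicted rat, and its meaning is not given either. Since MA12 and MA24 differ by 12 h of abstinence, they also differ in the time of day, and the effects of these cannot be told apart. Of 9 circadian clock genes tested, 3 were DEGs higher and 1 was a DEG lower in MA24, and their summed level was 943 to 1170 CPM in MA12 and 1301 to 1544 CPM in MA24. In the non-addicted rats it was 1206 to 1454 CPM. Against MA12, 8 clock genes were tested, and 3 were DEGs higher and 1 was a DEG lower in the non-addicted rats. Against MA24, 0 of 7 were DEGs. In the comparison of non-addicted with MA12 rats, too, the effect of the time of day cannot be told apart from that of the group.

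Guidance molecules steer growing axons by attraction or repulsion and remain expressed in the adult brain, where they act on synapses, glia and blood vessels. Netrins attract axons through Dcc and repel them through Unc5 receptors. Slits repel through Robo receptors. Class 3 semaphorins are secreted and most signal through a neuropilin paired with a plexin, whereas most membrane-bound semaphorins bind plexins directly. Ephrins are anchored in the membrane of one cell and bind Eph receptor tyrosine kinases on the next, with signals running in both directions. In the striatum, Eph–ephrin and semaphorin signals are known for sorting cells and incoming axons during development.

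Reads counted on genes lay between 17908962 and 23850284 per rat. Expression levels are given as log2 CPM (read counts scaled to a common library size) with a prior count of 2, on a single TMM scaling over the 12 libraries, as mean ± SD over 4 rats. Counts are not divided by gene length, so levels were not compared between genes. Markers of striatal projection neurons were high in all rats, with summed levels of 13610 to 18100 CPM over 10 genes, and markers of cortical projection neurons were close to 0, with 2.69 to 10.2 CPM over 4 genes. The 4 rats with the lowest striatal sums (13610 to 13990 CPM against at least 15310) were MA12 rats 21 and 31 and non-addicted rats 11 and 12. The summed hypothalamic markers were 13.0 CPM in non-addicted rat 11, with 181 counts of *Avp*, and 0.788 to 3.49 CPM in the other rats. The summed endothelial markers were 294 to 418 CPM in the non-addicted rats, 397 to 518 CPM in MA12 and 478 to 520 CPM in MA24. Because the tissue was sequenced in bulk, fewer cells of a type and less RNA per cell cannot be told apart.

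DEGs were genes with a Benjamini-Hochberg adjusted p below 0.05 over all genes tested and an FC of at least 1.5 in edgeR's quasi-likelihood test. For MA24 vs. MA12, 55 of the 57 guidance genes passed the filters, and 2 of them were DEGs, the netrin receptor gene *Unc5d* and the neuropilin gene *Nrp2*, both lower in MA24. That is 3.64% of the members tested, beside 2.45% of all 10754 genes, and 1.72% of all genes were DEGs lower in MA24. An adjusted p below 0.05 at any FC was reached by 5 members, or 9.09%, beside 5.16% of all genes, and these were *Unc5d*, *Nrp2*, *Epha4*, *Sema5a* and *Sema6c*. An unadjusted p below 0.05 was found for 14 members, or 25.5%, beside 23.6% of all genes. Of these 14, 12 were lower in MA24, which is 21.8% of the members tested, beside 13.1% of all genes. The median log2FC was -0.14 over the members and -0.02 over all genes, and 36 of the 55 members had a log2FC below 0. The levels of the groups did not overlap for 8 members, or 14.5%, close to the 15.5% of all genes.

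No guidance gene was a DEG in the comparisons with the non-addicted rats by the same edgeR test, in which 0.251% of 10758 genes (vs. MA12) and 0.456% of 10744 genes (vs. MA24) were. Against MA12, 8 of 54 members tested had an unadjusted p below 0.05 (14.8%, beside 12.3% of all genes). Lower in the non-addicted rats were 7 of them, 13.0% of the members beside 7.03% of all genes. DESeq2 called 1 member and edgeR's likelihood ratio test also called 1, *Unc5b* in each case. Groups did not overlap for 3 of the 54, beside 7.11% of all genes. Against MA24, 15 of 54 members had an unadjusted p below 0.05 (27.8%, beside 17.5% of all genes), and 10 of these were higher in the non-addicted rats, 18.5% of the members beside 9.33% of all genes. DESeq2 and the likelihood ratio test each called 3 members there, *Unc5d*, *Nrp2* and *Slit2*. The shares of all genes called by DESeq2 and by the likelihood ratio test are not given here. The members they called in either comparison can therefore not be set against the shares above, which are from the quasi-likelihood test. Groups did not overlap for 9 of the 54 (16.7%), beside 10% of all genes. The 3 comparisons share rats: MA12, MA24 and the non-addicted rats each enter 2 of them, so a low MA24 level enters both comparisons with MA24. The members that the variance filter removed were *Sema4f* in all 3 comparisons, *Sema3f* in those with MA24, and *Robo1*, *Sema6b* and *Ephb1* in 1 each. In the fit without that filter their log2FC values lay between -0.12 and 0.10, with unadjusted p of 0.10 or more.

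**Figure D1:**
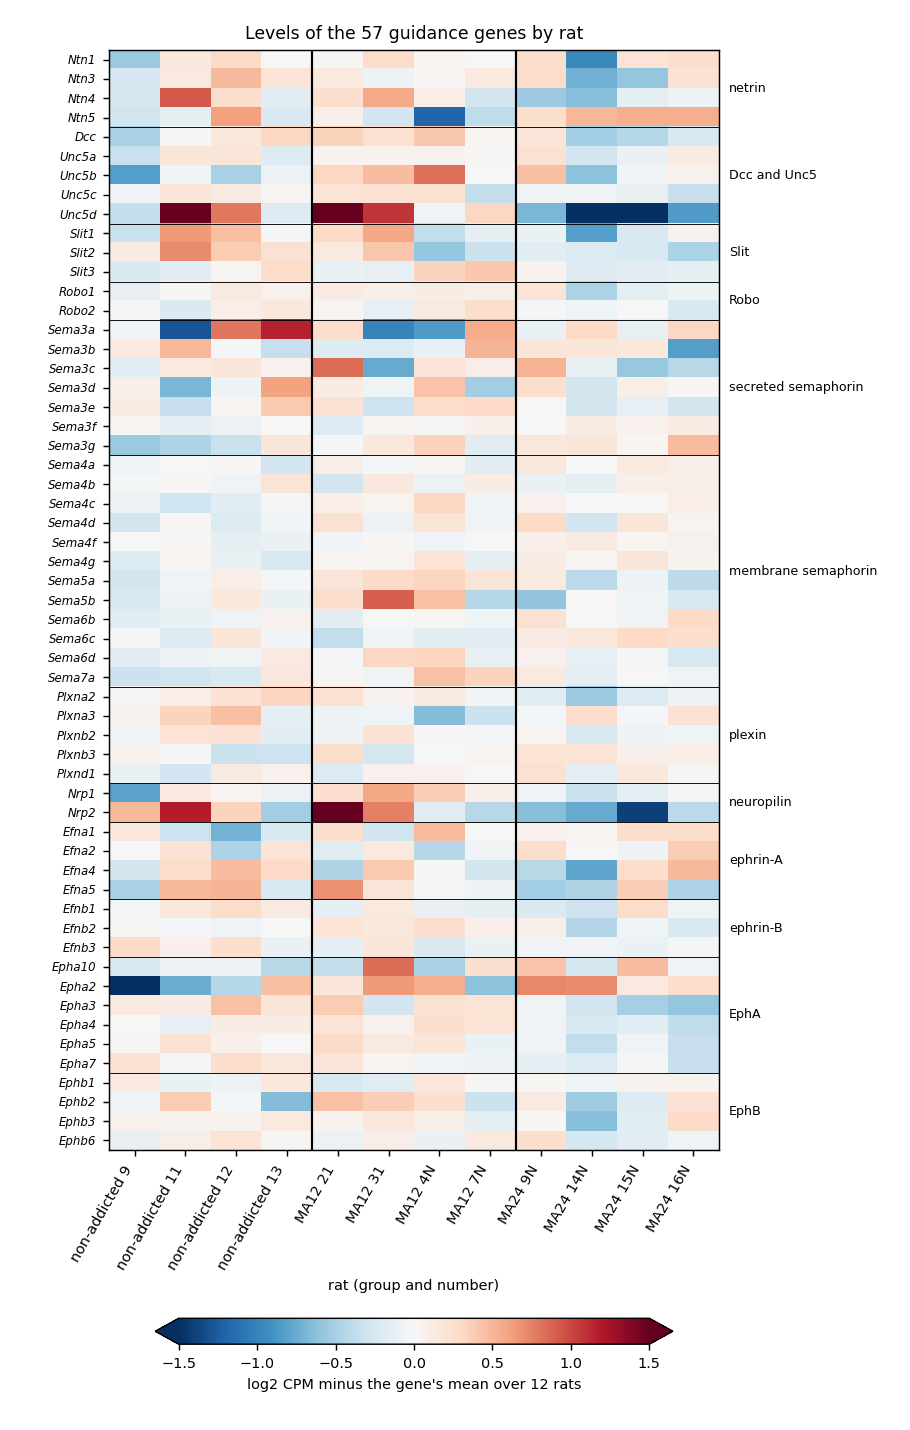
Heatmap of the 57 guidance genes (rows, grouped by class) in the 12 rats (columns, by group); colour gives log2 CPM minus the gene's mean over the 12 rats, cut at 1.5 on either side. *Unc5d* and *Nrp2* are high in MA12 rats 21 and 31 and non-addicted rat 11 and low in all MA24 rats, and MA24 rat 14N has the lowest level of 16 members.

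The guidance genes differed in how much they varied among the 12 rats. The range of levels from the lowest to the highest rat had a median of 0.76 log2 units over the 57 members, beside 0.64 over the 12091 genes with a mean of at least 10 counts. It ran from 0.26 for *Sema4f* to 4.52 for *Unc5d*. MA24 rat 14N had the lowest level of 16 members (28.1%, beside 15.1% of those 12091 genes), and MA12 rat 4N the highest level of 12 members (21.1%, beside 9.87%). The heatmap of levels by rat shows *Unc5d*, *Nrp2*, *Epha2* and *Sema3a* as the rows with the strongest colours. These genes had means of 31.5 to 53.5 counts.

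The promoters of 44 of the 57 members were found in the RefSeq promoter table of GRCr8, a later build than the rn6 the counts use. The 250 bases before the start site held a median of 14 CpG dinucleotides and 63.0% G and C in the members, beside 6 CpG and 52.0% in all 27457 promoters. Searched on both strands, the GC box GGGCGG was present in 22 of the 44 (50.0%, beside 32.4% of all promoters), the E-box CACGTG in 3 (6.82%, beside 5.79%), the cyclic AMP response element TGACGTCA in 1 (2.27%, beside 1.70%) and the TATA box TATAAA in 0 of 44 (13.1% of all). A match in these letters is a description of the window only. Shown are 3 promoters of genes that the results return to and that differ in these features: *Nrp2* (chr9:71617004-71617253, plus strand, 13 CpG), *Unc5b* (chr20:29307271-29307520, minus strand, 30 CpG) and *Sema6c* (chr2:185426236-185426485, plus strand, 0 CpG). They are written 5′ to 3′ along the gene, and capitals mark the GC box in either orientation.
Nrp2: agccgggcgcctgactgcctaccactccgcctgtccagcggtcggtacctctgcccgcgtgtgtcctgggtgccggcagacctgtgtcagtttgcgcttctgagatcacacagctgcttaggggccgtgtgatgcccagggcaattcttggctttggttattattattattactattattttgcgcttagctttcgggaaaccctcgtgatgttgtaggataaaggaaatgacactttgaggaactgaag
Unc5b: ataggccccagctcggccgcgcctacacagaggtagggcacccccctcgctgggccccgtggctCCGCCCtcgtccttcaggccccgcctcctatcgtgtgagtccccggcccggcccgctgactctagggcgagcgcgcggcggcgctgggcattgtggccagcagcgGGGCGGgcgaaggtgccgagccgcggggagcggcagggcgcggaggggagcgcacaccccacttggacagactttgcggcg
Sema6c: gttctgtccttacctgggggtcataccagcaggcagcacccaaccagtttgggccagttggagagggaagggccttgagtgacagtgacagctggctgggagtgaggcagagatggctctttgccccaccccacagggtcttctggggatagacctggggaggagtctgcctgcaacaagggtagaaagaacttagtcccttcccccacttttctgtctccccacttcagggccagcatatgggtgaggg
Only the *Unc5b* window among these 3 holds GC boxes, 2 in number, and it is 75.2% G and C, against 52.8% for *Nrp2* and 58.4% for *Sema6c*. The promoters of *Unc5d*, *Slit2*, *Epha4* and *Sema5a* were not in the table.

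In the netrin system, the receptor *Unc5d*, which mediates repulsion by netrin and also binds FLRT adhesion proteins, carried the largest difference of all members between MA24 and MA12. Its counts were 103, 54, 21 and 23 in MA12 rats 21, 31, 4N and 7N and 14, 6, 2 and 10 in MA24 rats 9N, 14N, 15N and 16N. The non-addicted rats 9, 11, 12 and 13 had 15, 90, 45 and 17 counts. Rats 21, 31, 11 and 12 were thus the highest, and the MA24 levels lay below all the others. The level fell from 0.99 ± 0.90 in MA12 to -1.22 ± 0.83 in MA24 (SD, n = 4). That is an FC of 0.175, or -2.51 ± 0.55 (SE) on the log2 scale, with an adjusted p of 0.0154 by edgeR. The fall was not past the threshold without MA12 rat 21 (log2FC -1.96, adjusted p = 0.0917, edgeR) or among the N-numbered rats alone, where rats 21 and 31 drop out (log2FC -1.54, adjusted p = 0.302, edgeR). Nor was it with all rats of both groups and the N in rat numbers as a covariate (log2FC -1.55, adjusted p = 0.210, edgeR). Against MA24, the non-addicted rats had a log2FC of 2.34 (SE 0.60, adjusted p = 0.0795, edgeR), with levels that did not overlap either, and against MA12 the log2FC was -0.18 (SE 0.51).

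The 4 rats with the most *Unc5d* also had the 4 lowest levels of *Ppp1r1b*, which encodes the dopamine-regulated phosphoprotein DARPP-32 of striatal projection neurons. *Ppp1r1b* stood at 12.53 and 12.67 in MA12 rats 21 and 31 and at 12.74 and 12.66 in non-addicted rats 11 and 12, against 12.86 to 13.28 in the other rats. *Ppp1r1b* was picked from the 10 striatal projection neuron markers after its values were seen, and the list was divided: these 4 rats were also the 4 lowest for *Adora2a* and *Rgs9*, and 3 of them were among the 4 lowest for 4 further markers, whereas only 1 was among the 4 lowest for *Pdyn* and for *Foxp1* and 2 for *Drd1*. *Pdyn* stood at 8.82 and 8.62 in rats 21 and 31, above its levels in all MA24 rats. The summed ependymal and choroid plexus markers were 38.8 and 52.8 CPM in rats 21 and 31 and 80.8 and 65.4 CPM in rats 11 and 12, against 20.4 to 35.8 CPM in the other rats except non-addicted rat 9, which had 60.8 CPM. Without rats 11 and 12, the log2FC of *Unc5d* between non-addicted and MA24 rats was 1.10 (adjusted p = 0.745, edgeR). The part of tissue composition in the *Unc5d* difference was not tested.

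*Unc5b*, the netrin receptor best known from the tip cells of blood vessels and the one with the highest mean count of its class (1079), had the smallest p of the members in the comparison of non-addicted with MA12 rats. Counts were 522, 937, 841 and 879 in the non-addicted rats, 1433, 1593, 1835 and 854 in MA12, and 1539, 643, 918 and 959 in MA24. Scaled for depth, all non-addicted rats were lower than all MA12 rats, while MA24 ranged across both. The level was 5.23 ± 0.36 in the non-addicted and 6.0 ± 0.35 in the MA12 rats, a log2FC of -0.77 (SE 0.17, adjusted p = 0.0550, edgeR), so that the FC of 0.585 was past its limit and the adjusted p was not. The adjusted p ranged from 0.00254 to 0.169 over the alternatives. All 6 endothelial markers tested were also lower in the non-addicted than in the MA12 rats, with 1 of them a DEG. The order of single rats was not the same throughout. MA24 rat 14N had the highest endothelial sum (520 CPM) and an *Unc5b* level of 4.99, below that of every MA12 rat. MA12 rat 4N, with 518 CPM, had the highest *Unc5b* level (6.43). The share of the *Unc5b* difference that follows these cells was not tested.

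*Dcc*, the attractive netrin receptor found on dopamine axons and their targets, had 652, 610, 612 and 393 counts in MA12 and 577, 309, 314 and 353 in MA24. MA24 rat 9N lay within the MA12 range and the other 3 below it. The log2FC was -0.47 (SE 0.15, adjusted p = 0.0655, edgeR), and without rat 9N it was -0.64 (adjusted p = 0.00803, edgeR). That was the only 1 of 17 alternatives in which *Dcc* was called, and the adjusted p ranged up to 0.253 over them. *Unc5a* and *Unc5c* had log2FC values of -0.04 and -0.23 in the same comparison, so the log2FC was below 0 for all 5 genes of the Dcc and Unc5 class, as for 51.7% of all genes. An unadjusted p below 0.05 was found for 3 of the 5 (beside 23.6% of all genes), and not for *Unc5a* or *Unc5c*. Of the netrins, *Ntn1*, the classical secreted cue and the netrin with the highest mean count (485.8), had log2FC values of -0.07, -0.09 and -0.02 in the 3 comparisons. *Ntn5*, a netrin with few counts, had 25, 19, 8 and 13 in MA12 and 28, 29, 29 and 28 in MA24, levels that did not overlap, with a log2FC of 0.91 (SE 0.44, adjusted p = 0.219, edgeR). *Ntn4*, a netrin of basement membranes, had a log2FC of 0.60 (SE 0.24, adjusted p = 0.210, edgeR) between non-addicted and MA24 rats, with its highest level in non-addicted rat 11. Without that rat the log2FC was 0.30 (adjusted p = 0.528, edgeR), and without rats 11 and 12 it was 0.12 (adjusted p = 0.917, edgeR).

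**Figure D2:**
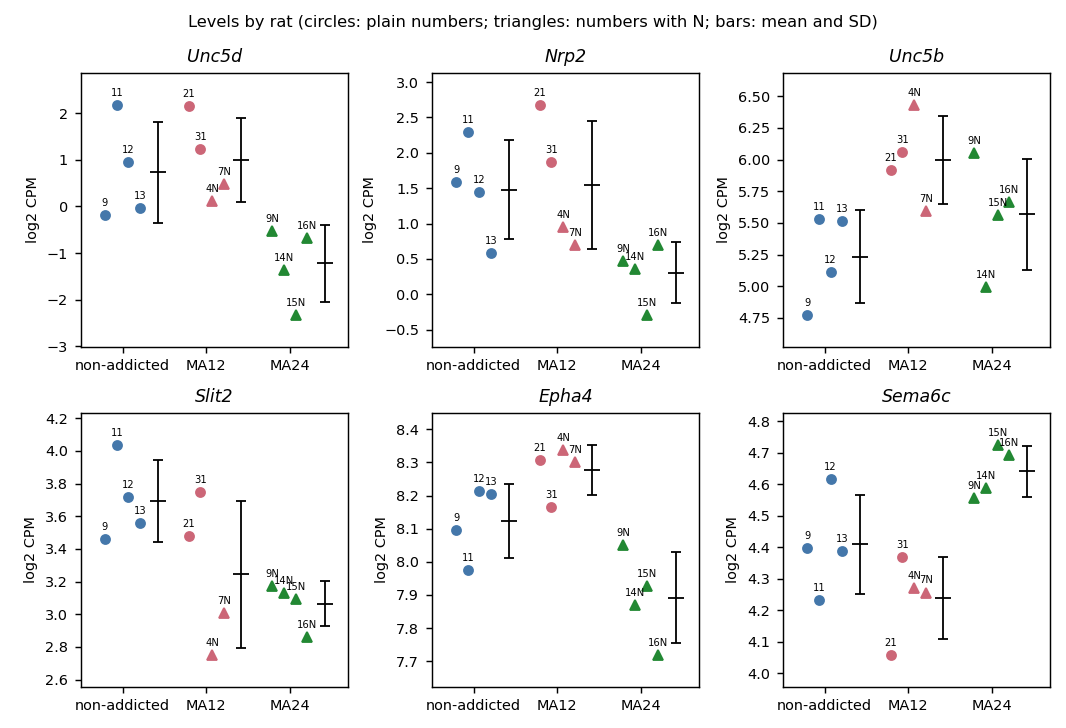
Levels (log2 CPM, vertical axes) of 6 guidance genes in each rat, by group; circles are rats with plain numbers, triangles rats whose number ends in N, and bars show the mean and SD of 4 rats. All MA24 rats lie below the MA12 rats for *Unc5d* and *Epha4* and above them for *Sema6c*, while *Nrp2* and *Unc5b* overlap between MA12 and MA24.

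Among the Slits, the repulsive ligands of Robo receptors, *Slit2* differed most. It had 209, 331, 319 and 225 counts in the non-addicted rats, 263, 319, 141 and 141 in MA12 and 207, 176, 164 and 136 in MA24. All non-addicted levels lay above all MA24 levels, and MA12 was divided, with rats 21 and 31 within the range of the non-addicted rats, 7N within that of MA24 and 4N below it. The level was 3.69 ± 0.25 in the non-addicted and 3.06 ± 0.14 in the MA24 rats (log2FC 0.64, SE 0.16, adjusted p = 0.0784, edgeR). Without non-addicted rats 11 and 12 it was 0.45 (adjusted p = 0.738, edgeR). *Slit1* had a log2FC of 0.46 in the same comparison, and its 4 highest rats were 11, 31, 12 and 21, the same 4 that lead for *Unc5d*. *Slit3*, with the highest mean count of the class (1368), had log2FC values of -0.26, -0.15 and 0.10. The receptors *Robo1* and *Robo2*, of which *Robo2* had the higher mean count (3669), had log2FC values between -0.20 and 0.12 in all 3 comparisons (*Robo1* vs. MA12 in the non-addicted rats from the fit without the variance filter), and neither had an unadjusted p below 0.05.

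In the semaphorin system, *Nrp2*, the co-receptor through which class 3 semaphorins such as Sema3f repel axons, was the other DEG. Counts were 150, 85, 39 and 27 in MA12, 30, 24, 14 and 29 in MA24 and 56, 97, 64 and 27 in the non-addicted rats. MA12 rats 4N and 7N were close to the MA24 rats, and 7N was on a level with MA24 rat 16N. The level fell from 1.55 ± 0.91 in MA12 to 0.31 ± 0.43 in MA24 (log2FC -1.49, SE 0.42, adjusted p = 0.0436, edgeR), with a two-sided exact permutation p of 0.0571. Among the N-numbered rats the log2FC was -0.50 (adjusted p = 0.669, edgeR), and it was -0.96 without MA12 rat 21 (adjusted p = 0.239, edgeR). The adjusted p was also above 0.05 without any 1 of MA12 rat 31 (0.0760) and MA24 rats 14N (0.0799), 15N (0.105) and 16N (0.0669), while the log2FC stayed between -1.63 and -1.31 in these fits. *Nrp2* in the non-addicted rats stood at 1.48 ± 0.70, a log2FC of 1.30 against MA24 (SE 0.38, adjusted p = 0.116, edgeR). As for *Unc5d*, rats 21, 11 and 31 had the highest levels, and these are rats with low *Ppp1r1b*, as the plot of guidance genes beside markers shows, though not with low levels of every marker of striatal projection neurons.

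**Figure D3:**
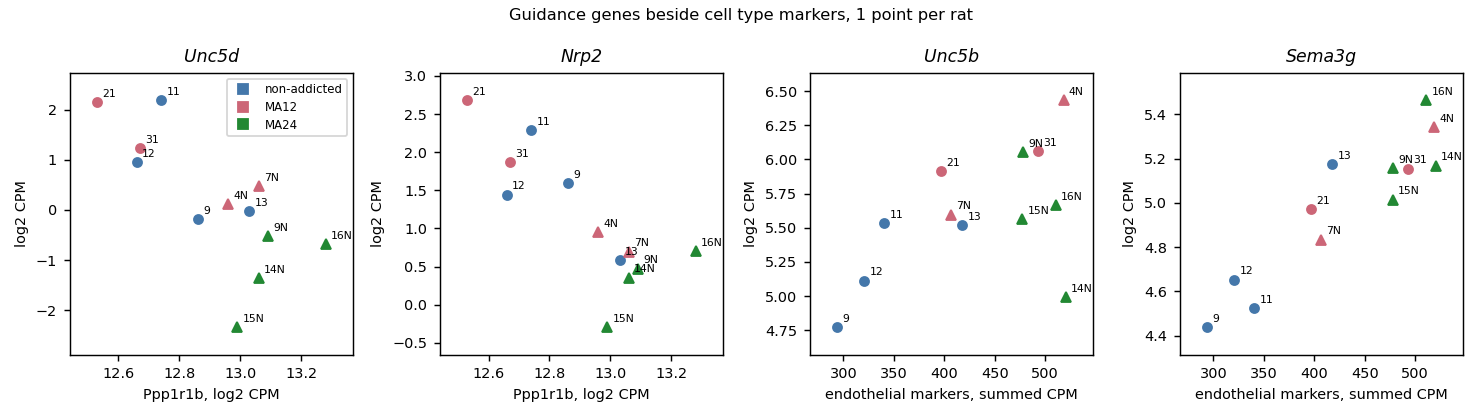
Levels (log2 CPM, vertical axes) of *Unc5d* and *Nrp2* against *Ppp1r1b* (log2 CPM) and of *Unc5b* and *Sema3g* against summed endothelial markers (CPM), 1 point per rat coloured by group. MA12 rats 21 and 31 and non-addicted rats 11 and 12 sit at the low end of *Ppp1r1b*, from 12.53 to 12.74, and non-addicted rats 9, 11 and 12 at the low end of the endothelial sums, from 294 to 341 CPM. At their high end, MA24 rat 14N has an *Unc5b* level of 4.99 and MA12 rat 4N one of 6.43.

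*Nrp1*, the neuropilin shared by Sema3a and the vascular growth factor VEGF and the one with the higher mean count (265.2), had 345, 436, 334 and 228 counts in MA12, 272, 195, 214 and 226 in MA24 and 133, 274, 304 and 221 in the non-addicted rats. MA24 and MA12 levels did not overlap (3.48 ± 0.14 and 3.94 ± 0.21, log2FC -0.47, SE 0.15, adjusted p = 0.0663, edgeR). The non-addicted rats had the same log2FC of -0.47 against MA12 (SE 0.18, adjusted p = 0.279, edgeR). No *Nrp1* difference was detectable between non-addicted and MA24 rats, with a log2FC of 0.0012 (SE 0.18).

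The plexins, the signalling receptors for semaphorins, had log2FC values of either sign. *Plxna2*, the plexin with the highest mean count (3808), had 4958, 4449, 4185 and 3076 counts in MA12, 3737, 2480, 3023 and 3198 in MA24 and 3361, 3893, 5054 and 4286 in the non-addicted rats. All MA24 levels were below all levels of either other group, with log2FC values of -0.33 vs. MA12 (SE 0.11, adjusted p = 0.0733, edgeR) and of 0.39 for the non-addicted rats vs. MA24 (SE 0.11, adjusted p = 0.112, edgeR). *Plxna3*, a partner of Nrp2 in Sema3f signalling, had log2FC values of 0.37 in MA24 and 0.45 in the non-addicted rats vs. MA12 (adjusted p = 0.105 and 0.184, edgeR), and MA12 rat 4N had its lowest level. *Plxnb3*, which is expressed by oligodendrocytes, had a log2FC of -0.30 in the non-addicted vs. MA24 rats (SE 0.11, adjusted p = 0.188, edgeR). All 6 oligodendrocyte markers were lower in the non-addicted rats in that comparison and in the one with MA12. The part of these cells in the *Plxnb3* difference was not tested. *Plxnb2* and *Plxnd1* had log2FC values between -0.12 and 0.14.

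The semaphorins themselves held 7 secreted and 12 membrane-bound members. *Sema6c*, a transmembrane semaphorin, rose in MA24 without reaching the FC limit. It had 394, 493, 409 and 337 counts in MA12, 545, 487, 513 and 488 in MA24 and 403, 379, 596 and 401 in the non-addicted rats. The MA24 levels were all above those of MA12 (4.64 ± 0.08 and 4.24 ± 0.13, log2FC 0.40, SE 0.12, adjusted p = 0.0496, edgeR). *Sema5a*, which acts as attractant or repellent depending on its proteoglycan partners, fell in MA24 (log2FC -0.41, SE 0.12, adjusted p = 0.0492, edgeR). Its counts were 1405, 1513, 1380 and 1044 in MA12, 1332, 791, 951 and 745 in MA24 and 821, 999, 1347 and 980 in the non-addicted rats. The levels in MA12 lay above those of both other groups, with MA24 rat 9N close behind. Non-addicted vs. MA12 gave a log2FC of -0.32 (SE 0.10, adjusted p = 0.170, edgeR).

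*Sema5b*, its close relative, had log2FC values of -0.58 and -0.44 in MA24 and in the non-addicted rats vs. MA12, with 670 counts in MA12 rat 31 against 197 to 435 in the other MA12 rats. *Sema7a*, the GPI-anchored semaphorin and the one with the highest mean count (6640), had a log2FC of -0.36 in the non-addicted vs. MA12 rats (SE 0.13, adjusted p = 0.273, edgeR), and *Sema4c* one of -0.25 (SE 0.11, adjusted p = 0.376, edgeR). Of the secreted class 3, the vascular *Sema3g* was the only member with an unadjusted p below 0.05 in any of the 3 comparisons. It had 414, 464, 611 and 692 counts in the non-addicted rats, 743, 849, 861 and 503 in MA12 and 827, 728, 627 and 833 in MA24. The non-addicted rats 9, 11 and 12 were the lowest of the 12, and rat 13 lay among the others. The log2FC was -0.37 vs. MA12 (adjusted p = 0.324, edgeR) and -0.49 vs. MA24 (adjusted p = 0.124, edgeR), and without rat 13 the latter was -0.68 (adjusted p = 0.00710, edgeR). That was the only 1 of 16 alternatives vs. MA24 in which *Sema3g* was called, and the adjusted p ranged up to 0.740 over them. The endothelial sums in rats 9, 11, 12 and 13 were 294, 341, 321 and 418 CPM, so that rat 9 was the lowest and rat 13 the highest of the group for these markers and for *Sema3g*. Rats 11 and 12 stood in the opposite order, with *Sema3g* levels of 4.52 and 4.65. The part of these cells in the difference was not tested. The 6 secreted members tested in MA24 vs. MA12 had log2FC values between -0.30 and 0.23. *Sema3f*, the ligand of Nrp2 with the highest mean count of the class (969.4), had levels of 5.51 ± 0.12 in MA12, 5.61 ± 0.05 in MA24 and 5.49 ± 0.09 in the non-addicted rats.

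In the Eph–ephrin system, *Epha4*, a receptor that binds ephrins of both classes and marks the matrix compartment of the developing striatum, fell in MA24. Counts were 7523, 6866, 6879 and 5582 in MA12, 6158, 4746, 4734 and 3984 in MA24 and 5253, 5097, 7231 and 5668 in the non-addicted rats. Every MA24 level was below every MA12 level (7.89 ± 0.14 and 8.28 ± 0.08). The log2FC of -0.38 (SE 0.10, adjusted p = 0.0301, edgeR) corresponds to an FC of 0.767, which is short of the limit for a DEG. Over the alternatives the adjusted p ranged from 0.00384 to 0.0964, and that of *Sema5a* and *Sema6c* from 0.00798 to 0.178 and from 0.0197 to 0.246. *Epha4* had the highest mean count of the EphA class (5810). *Epha5*, an ephrin-A receptor of projection neurons, had a log2FC of -0.33 (SE 0.12, adjusted p = 0.0987, edgeR).

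All 6 EphA members had an unadjusted p below 0.05 in the non-addicted vs. MA24 rats, beside 17.5% of all genes, and none passed the adjustment. Of the 6, 4 were higher and 2 lower in the non-addicted rats. The class was singled out after its values were seen. *Epha7*, which had the smallest p, had 1030, 929, 1352 and 1002 counts in the non-addicted and 972, 816, 889 and 691 in the MA24 rats. Its levels did not overlap (5.69 ± 0.12 and 5.36 ± 0.13, log2FC 0.33, SE 0.11, adjusted p = 0.137, edgeR). *Epha3*, *Epha5* and *Epha4* had log2FC values of 0.57, 0.28 and 0.23 in the same direction. *Epha2*, a receptor of epithelium and vessels, and *Epha10* had log2FC values of -0.95 and -0.38, and *Epha2* had only 10, 25, 38 and 57 counts in the non-addicted rats, with rat 9 the lowest and rat 13 the highest, as for the summed endothelial markers. Rats 11 and 12 stood in the opposite order, with *Epha2* levels of 0.41 and 0.73 and endothelial sums of 341 and 321 CPM. The part of endothelial cells in the *Epha2* difference was not tested.

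None of the 4 EphB members had an unadjusted p below 0.05 in any comparison, and their log2FC values lay between -0.29 and 0.17. *Ephb1*, the EphB with the highest mean count (2512), had levels of 6.85 ± 0.19 in MA12, 6.93 ± 0.06 in MA24 and 6.94 ± 0.14 in the non-addicted rats. *Efnb3*, the ephrin-B with the highest mean count (3657) and a midline cue of the spinal cord, had 7.36 ± 0.18, 7.38 ± 0.03 and 7.56 ± 0.18 in the same order. *Efnb2*, an ephrin of arteries and synapses, had a log2FC of -0.32 in MA24 vs. MA12 (SE 0.12), and it was the only ephrin with an unadjusted p below 0.05. *Efna2*, the ephrin-A with the highest mean count (173.3), had 2.92 ± 0.24, 3.19 ± 0.22 and 3.04 ± 0.32.

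**Figure D4:**
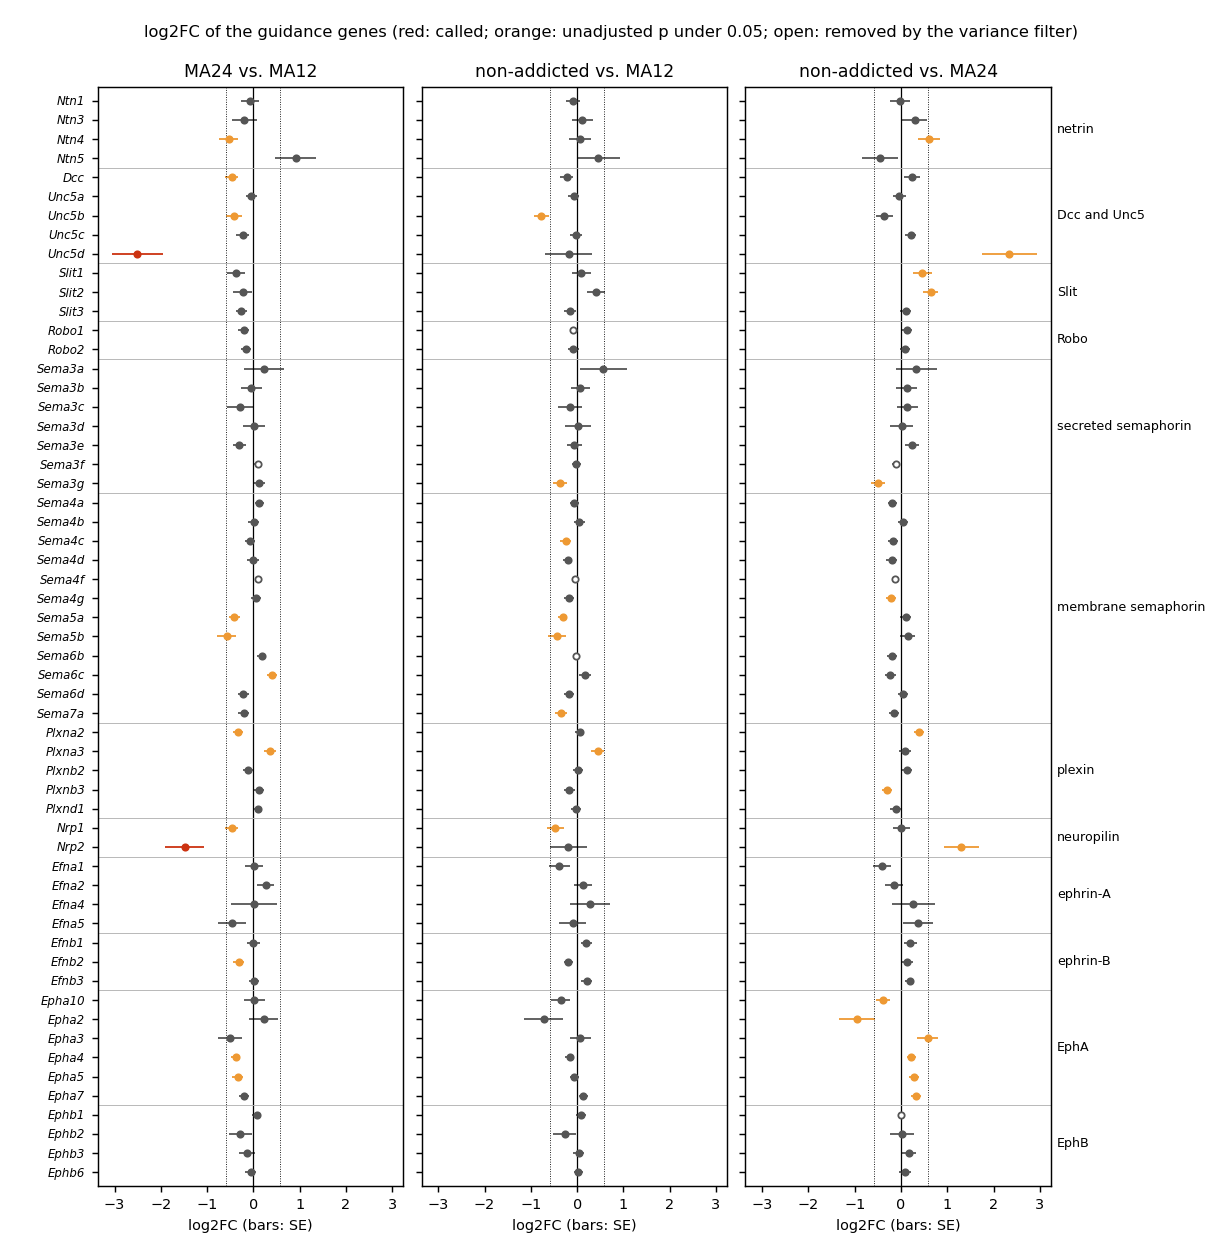
log2FC (horizontal axis, bars give the SE) of the 57 guidance genes, grouped by class, in the 3 comparisons of groups; red marks DEGs, orange an unadjusted p below 0.05 and open circles members removed by the variance filter and taken from the fit without it. The DEGs are *Unc5d* (-2.51) and *Nrp2* (-1.49) in MA24 vs. MA12, and dotted lines mark an FC of 1.5.

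Proteins that act beside or downstream of these receptors were taken from a list of 68 genes, of which 61 were in the table. The list was chosen with earlier results of these data known, so its shares only describe it. In MA24 vs. MA12, 50 of them were tested and 3 were DEGs, all lower in MA24 (6.0%, beside 1.72% of all genes called lower). *Pak3*, a kinase that acts downstream of Rac and Cdc42, had 521, 431, 355 and 219 counts in MA12 and 254, 100, 141 and 141 in MA24 (log2FC -1.17, SE 0.21, adjusted p = 0.00605, edgeR). *Abl2*, a kinase of the cytoskeleton, and *Dscam*, an adhesion molecule that serves as a netrin receptor, fell by 0.69 each on the log2 scale (adjusted p = 0.0118 and 0.0369, edgeR). *Pak3* was called in every alternative but that with the N in rat numbers as a covariate (adjusted p = 0.0775, edgeR), *Abl2* was also lost among the N-numbered rats (adjusted p = 0.0745, edgeR), and *Dscam* was lost in 8 alternatives, with an adjusted p of 0.119 without MA12 rat 31 and of 0.0820, 0.0918 and 0.0912 without MA12 rat 21 or MA24 rat 14N or 15N (edgeR). In all, 15 of the 50 effectors had an unadjusted p below 0.05 (30.0%, beside 23.6% of all genes), the DEGs included, and 14 of the 15 were lower (28.0% of the effectors, beside 13.1% of all genes), with *Ngef*, an exchange factor that acts downstream of EphA receptors, the exception at 0.34, named here after its value was seen. *Tiam1*, a Rac activator bound by ephrins and Eph receptors, fell without reaching the FC limit (log2FC -0.46, SE 0.10, adjusted p = 0.0179, edgeR). The median log2FC of the list was -0.17 in MA24 vs. MA12, -0.05 in the non-addicted vs. MA12 and 0.10 in the non-addicted vs. MA24 rats, beside -0.02, -0.01 and 0.0031 over all genes. None of the effectors was a DEG in the latter 2 comparisons by edgeR's quasi-likelihood test, its likelihood ratio test or DESeq2, with 7 of 52 and 8 of 49 at an unadjusted p below 0.05 in the first of these tests (13.5% and 16.3%, beside 12.3% and 17.5% of all genes). In the non-addicted vs. MA12 rats, the smallest p values were those of *Dock1*, a Rac activator downstream of Dcc, *Abl1* and *Pak3*, with log2FC values of -0.29, -0.44 and -0.51. In the non-addicted vs. MA24 rats they were those of *Tiam1* (log2FC 0.41, SE 0.10, adjusted p = 0.0630, edgeR), of *Rasa1*, a Ras inhibitor recruited by EphB receptors (0.38), and of *Pak3* (0.66).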

How the data were processed

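Striatal poly-A RNA of 12 rats was sequenced by the authors. The study states a single batch of RNA extraction for its groups, and this is not given separately for the non-addicted rats. The authors used Cutadapt 1.18 to trim the paired-end reads, STAR 2.7.0e to align them to rn6 and featureCounts to count them per gene. HTSeq 0.12.4 is also among the tools in the submitters' processing notes. The deposited values are raw counts for 17337 gene symbols, without normalization. How strands and reads with several positions were counted is not given in the sources used here, so counts of overlapping genes and near-identical copies are uncertain. Per the labels, groups held 4 rats each, and none of the 12 columns was left unused. Replicates differed by more than sampling noise (chi-square per degree of freedom 9.72 to 28.0 over 18 pairs within groups).

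In each comparison, genes averaging more than 4 counts across its 8 libraries were retained, the 15% with the lowest variance of TMM-scaled log2 CPM were removed, and edgeR 4.0.16 (glmQLFit, glmQLFTest, R 4.3.3) was run on the whole table with only these 2 groups. The filters follow one reading of the study's methods. p-values were Benjamini-Hochberg adjusted over all genes tested, the limits for DEGs were 0.05 for the adjusted p and 1.5 for the FC, and levels were computed as log2 CPM (prior count 2). Members removed by the variance filter are given from the fit without it. Single levels were compared by two-sided exact permutation over 70 splits, where the smallest possible p is 0.0286. As alternatives, DESeq2 1.42.0, a likelihood ratio test, RLE factors, looser and stricter filters, a joint fit of all 3 groups, the omission of single rats, and the N in rat numbers as a selection or a covariate were tried. The N was used only in the 2 comparisons with MA12. In non-addicted vs. MA24 it coincides with the group, so its effect cannot be told apart from that of the group. The fit without non-addicted rats 11 and 12 was added after the data were seen. The fits were checked on simulated counts.

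Members, role classes and the lists of effectors and markers were chosen with earlier results of these data known. Named were, in each comparison, every member called and the 8 others with the smallest unadjusted p, in each class the member with the highest mean count, and among effectors those called and the 3 with the smallest p per comparison. Promoters came from the RefSeq table of GRCr8 and were matched by symbol, and no rn6 coordinates were used.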

Additional observations from a re-analysis of the deposited data

How the results depend on the processing

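In MA24 vs. MA12, the 2 guidance genes called became 1 with DESeq2 (*Nrp2*, while *Unc5d* received no adjusted p), 1 without the variance filter, 1 without any filter, 1 with all 3 groups in the fit (*Unc5d* in these 3) and 1 with at least 10 counts required in every library (*Nrp2*). The count was 0 among rats numbered with N, which leaves out MA12 rats 21 and 31, 0 with the N in rat numbers as a covariate and 5 without the FC threshold. Leaving out single rats gave 0 to 4: 0 without MA12 rat 21, 1 without MA12 rat 31 or MA24 rat 14N, 15N or 16N, and 4 without MA24 rat 9N (*Dcc* and *Unc5b* in addition). In non-addicted vs. MA12, the count of 0 became 1, *Unc5b*, with DESeq2, with the likelihood ratio test, with at least 10 counts in every library and among rats with plain numbers, and leaving out single rats gave 0 to 1 (1 without non-addicted rat 13 or MA12 rat 7N). In non-addicted vs. MA24, the count of 0 became 3 with DESeq2 and 3 with the likelihood ratio test, and leaving out single rats gave 0 to 4 (4 without rat 13 and 2 without rat 9 of the non-addicted group). Of the effectors, the 3 called in MA24 vs. MA12 became 1 among rats numbered with N, 0 with the N as a covariate and 5 without the FC threshold, and leaving out single rats gave 2 to 4. The cause of these shifts was not tested, except that fewer rats or other genes entered the fits named so.

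Counts of members whose groups did not overlap (9, 3 and 10 of all 57) were the same with RLE factors. Of 431 alternative values for the 26 named log2FC values, 398 kept the direction and the side of the threshold, 13 lost a call (of *Unc5d* or *Nrp2* in MA24 vs. MA12), 20 gained one and 0 changed sign. *Unc5d* lost its call in 3 of 15 alternatives and *Nrp2* in 10 of 17. The other named values were not called in the main fit, so for them keeping the side means only staying uncalled. Genes such as *Unc5d*, with as few as 2 counts in a rat, carry a large counting error at this depth. No paired analysis was possible because the groups share no rat numbers.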
